A study of Oryza sativa and Triticum aestivum and Oryza sativa Japonica Group with 26 samples.

Results

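OSH1, OSH71, OSH15 and OSH3 are class I KNOX genes of rice, and their reads were counted in RNA from young panicles of JZ1560, a japonica cultivar. They were chosen by gene ID and make up 4 of the 55986 gene IDs in the count table. OSH1 is LOC_Os03g51690, OSH3 is LOC_Os03g51710, OSH15 is LOC_Os07g03770 and OSH71 is LOC_Os05g03884. The plants grew in soil in an experimental field without a stated treatment, and neither their age nor the stage of the panicles is given in the labels. The series held 26 samples, 23 from 2 rice cultivars and 3 from wheat seedlings, most of them chromatin libraries. Only 1 of them was an RNA sample, so each value below comes from 1 library, no difference has a replicate check, and no p-value is given. The library is not set against another tissue, cultivar or time.

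KNOX proteins are transcription factors with a homeodomain of the TALE type, in which extra residues lengthen the loop between the first and the next helix. Class I members are active in the shoot meristem, the dividing tip that makes new organs, and are switched off where a leaf or floral organ starts to form. In plants they are known to keep cytokinin high and gibberellin low in the meristem. A young panicle holds many meristems at once, in the rachis, the branches and the spikelets, and class I KNOX transcripts are commonly used to mark such tissue. In bulk RNA, fewer meristem cells and less KNOX RNA per cell cannot be told apart.

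All 4 genes had reads in the panicle, as did 49514 of the 55986 gene IDs. OSH1, the rice counterpart of maize knotted1, is needed to keep the shoot meristem in being. It had 227 reads, or 31.7 CPM, the share of all counts assigned to gene IDs on the usual CPM scale. OSH71, also called Oskn2, had 98 reads (13.7 CPM). OSH15, the gene mutated in the short-internode d6 dwarf, had 77 reads (10.7 CPM). OSH3, which lies beside OSH1 on chromosome 3, had the fewest reads, 24 (3.35 CPM). The exact 95% Poisson intervals were 27.7 to 36.1 CPM for OSH1, 11.1 to 16.7 CPM for OSH71, 8.48 to 13.4 CPM for OSH15 and 2.14 to 4.98 CPM for OSH3. These intervals cover counting error only, because the values come from 1 library. They treat reads as independent molecules, so they are too narrow where reads were copied by PCR.

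**Figure D1:**
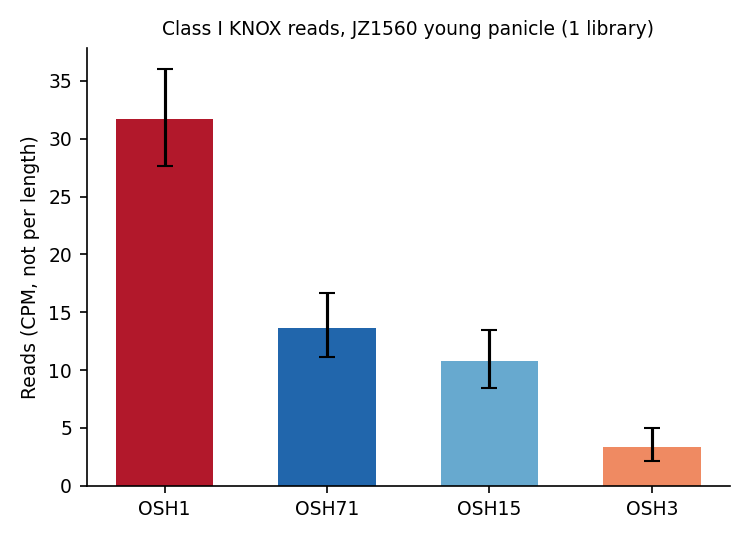
Reads of the 4 class I KNOX genes in the JZ1560 young panicle library, in CPM without correction for length. Bars are the values of 1 library and lines the exact 95% Poisson intervals. OSH1 stands at 31.7 CPM and OSH3 at 3.35 CPM, and the intervals of OSH71 and OSH15 overlap.

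The 4 genes together had 426 reads, which is 59.4 CPM (95% Poisson interval 53.9 to 65.3). OSH1 gave 53.3% of these reads (95% Clopper-Pearson interval 48.4 to 58.1). OSH71 gave 23.0% (19.1 to 27.3), OSH15 gave 18.1% (14.5 to 22.1) and OSH3 gave 5.63% (3.64 to 8.27). The interval of OSH1 spans an even split between it and the other three combined.

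The order by reads was OSH1, OSH71, OSH15 and OSH3. OSH1 had 2.32 times the reads of OSH71 (95% interval 1.82 to 2.97, exact binomial) and 2.95 times those of OSH15 (2.27 to 3.87). OSH71 and OSH15 were not separated by counting error, with a ratio of 1.27 (0.935 to 1.74). OSH15 had 3.21 times the reads of OSH3 (2.01 to 5.31), and OSH71 had 4.08 times (2.59 to 6.67). These are ratios of reads and not of transcript levels, because a longer transcript yields more fragments and the lengths of the counted exons were not used here.

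A count of reads can also include more than its own gene. In the RefSeq table of the japonica assembly ASM3414082v1, 1 other gene, a long noncoding RNA named LOC112938160, overlaps the span of OSH1. None overlaps that of OSH3, OSH15 or OSH71. The extent of the overlap, and whether it includes exons, was not examined. The strand setting of the authors' counting is not stated, so reads of that RNA and of OSH1 may not be separable. The part of such reads in the 227 was not tested. The KNOX genes are paralogs, and the table's line for reads with more than one alignment holds 0. Whether such reads were removed earlier or counted is not stated, so the split of reads between closely related members is uncertain.

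Set against the whole table, the KNOX genes lay in the middle to upper range of read counts. OSH1 ranked 7692 of 55986, so 13.7% of gene IDs had more reads. OSH71 ranked 12602 with 22.5% of IDs above it, and OSH15 ranked 13930 with 24.9% above it. OSH3 ranked 20021 with 35.8% above it, and 238 other IDs had the same count of 24. At the ends of their Poisson intervals the genes would rank 6956 and 8496 (OSH1), 11490 and 13794 (OSH71), 12728 and 15218 (OSH15), and 17942 and 23156 (OSH3). A rank of this kind depends on transcript length as well.

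All 4 genes passed 1 CPM, as did 53.6% of all IDs, and 3 of the 4 passed 10 CPM, as did 25.6% of all IDs. OSH3 was the member that stayed below 10 CPM. With reads of no feature and ambiguous reads in the total, OSH71 stood at 9.70 CPM and OSH15 at 7.62 CPM, so that 1 of the 4, OSH1, passed 10 CPM, as did 22.2% of all IDs. The interval of OSH15 reached below 10 CPM without these reads too. More than 3 counts, the limit used for a detected gene, were found for 4 of 4 members and for 68.3% of all IDs. Of all IDs, 6472, or 11.6%, had a count of 0. Over all IDs the median count was 9, and over IDs with at least 1 read it was 13. Against the median of 13, OSH1 had 17.5 times as many reads, OSH71 7.54 times, OSH15 5.92 times and OSH3 1.85 times. Among the IDs with at least 10 counts, 49.1% of the table, OSH1 stood at 2.84 times the median, OSH71 at 1.23 times, OSH15 at 0.963 times and OSH3 at 0.300 times. OSH71 and OSH15 thus lay near the middle of the well-read IDs, OSH1 above it and OSH3 below it.

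**Figure D2:**
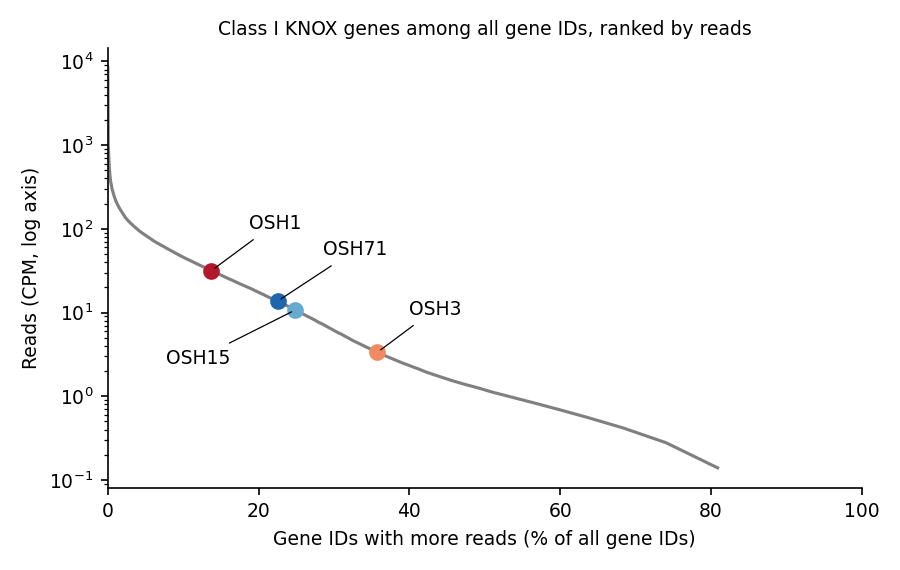
Reads per gene ID in CPM (log axis) against the share of all 55986 gene IDs with more reads, for the JZ1560 young panicle library. The grey line is all IDs with at least 1 read and the points are the class I KNOX genes. OSH1 lies at 13.7%, OSH71 at 22.5%, OSH15 at 24.9% and OSH3 at 35.8%.

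Compared with their places over all IDs, those within their own chromosomes were similar for OSH71 and OSH15 and lower for OSH1 and OSH3. OSH1 still had the smallest share of IDs above it. OSH71 ranked 1036 of 4572 IDs on chromosome 5 (22.6% above it) and OSH15 ranked 1046 of 4450 on chromosome 7 (23.5% above it). On chromosome 3, OSH1 ranked 1117 and OSH3 2594 of 5568 IDs, with 20.04% and 46.6% above them.

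OSH1 and OSH3 are close neighbours with very different read counts. In the file's order they are 2 places apart, and 1 ID, LOC_Os03g51700, stands between them. RefSeq likewise lists 1 protein-coding gene, LOC4333974, between its OSH1 and OSH3 entries. The files do not pair that name with LOC_Os03g51700. OSH1 had 227 reads, the ID in between 17 and OSH3 24. OSH1 exceeded OSH3 9.46-fold in reads (95% interval 6.20 to 15.1, exact binomial). The lengths of the counted exons were not used, so the part of length in this gap was not tested. OSH3 and the ID in between did not differ beyond counting error, at a ratio of 1.41 (0.727 to 2.80).

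Gaps of several fold were common between near neighbours. Of 15534 pairs of IDs that stood 2 places apart on a chromosome and had at least 10 counts each, 47.4% differed by at least 4-fold in reads and 29.1% by at least 8-fold. These limits were chosen after the values of the pair were seen.

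Within 10 IDs, the neighbours of the pair fell into a well-read side and a thinly read side, a contrast that did not extend further out. The 10 IDs before OSH1, from LOC_Os03g51580 to LOC_Os03g51680, had between 3 and 8445 reads with a median of 180.5. Of these, 9 had at least 10 reads and 5 had more reads than OSH1. The highest was LOC_Os03g51600, with 8445 reads (1178 CPM). The 10 IDs after OSH3, from LOC_Os03g51720 to LOC_Os03g51830, had between 2 and 279 reads with a median of 4. Of these, 3 had at least 10 reads, 3 exceeded OSH3 and 1 exceeded OSH1. Further out, the IDs 11 to 20 places before OSH1 had a median of 9 reads and those 11 to 20 places after OSH3 a median of 41. With 20 IDs on each side of OSH1 the medians before and after were 51.5 and 17.5 reads, a ratio of 2.94, against 45.1 with 10.

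**Figure D3:**
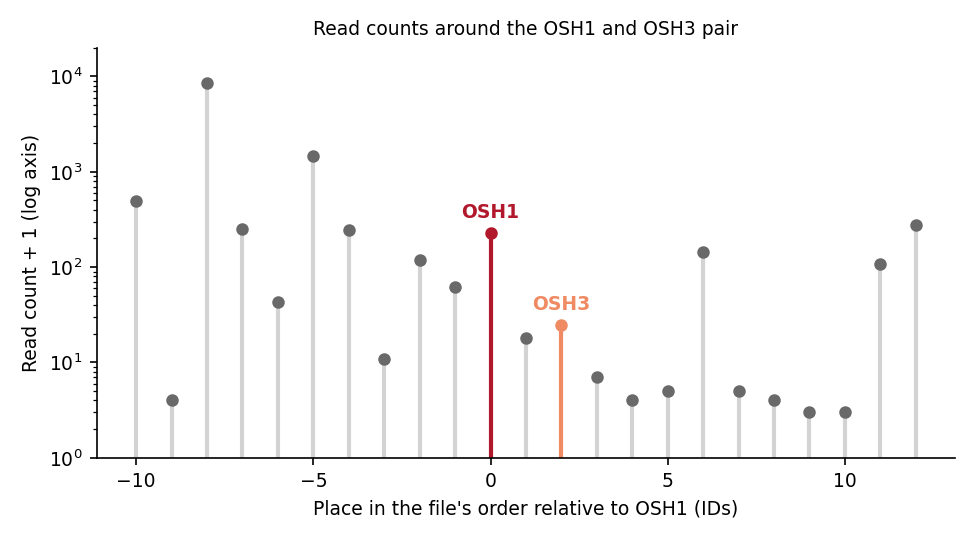
Read counts plus 1 (log axis) of OSH1, OSH3 and their neighbours by place in the file's order, from 10 IDs before OSH1 to 10 IDs after OSH3, in the JZ1560 young panicle library. OSH1 has 227 reads and OSH3 24, the 10 IDs before OSH1 have a median of 180.5 reads and the 10 after OSH3 a median of 4.

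Taken with 10 IDs on each side of its own place, OSH1 had more reads than 15 of its 20 neighbours, whose median was 20.5 reads. Over all IDs, 86.2% lay below OSH1 and 63.8% below OSH3. On the scale of log2(CPM + 1), which understates differences among low values, OSH1 lay 3.08 above that median, and 0.78 above the median of the neighbours with at least 10 counts. OSH3 had more reads than 9 of its 20 neighbours and fewer than 11, and stood under their median of 51.5 reads, at a log2 difference of -0.91, or -2.26 against those with at least 10 counts. With 5 IDs on each side, OSH3 lay 0.59 above the median of 13.5 reads, but at -1.63 against those with at least 10 counts. With 20 IDs on each side the difference was -0.49. The direction for OSH3 thus depends on the window and on whether thinly read IDs are kept. Each of these sets holds the other member of the pair.

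OSH71 stood among its neighbours much as it did over all IDs, of which 77.4% lay below it. It had 98 reads, more than 16 of its 20 neighbours, which had between 0 and 383 reads with a median of 10 and included 3 IDs at 0. The neighbour with most reads was LOC_Os05g03860, 3 places before it, with 383 reads (53.4 CPM). OSH71 lay 2.61 above the median on the log2(CPM + 1) scale. The difference was 0.66 against the neighbours with at least 10 counts, and -0.58 against those of them within 5 IDs, whose median was 150 reads. High and low counts were mixed on both sides, with medians of 5.5 before it and 28.5 after it.

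OSH15 had 77 reads, against which 24.9% of all IDs and 2 of its 20 neighbours were higher. It had more than all 10 of the nearest, which had at most 34. Over the 20 neighbours the counts ran from 0 to 153 with a median of 8.5, and OSH15 lay 2.43 above it on the log2(CPM + 1) scale, or 0.88 above the neighbours with at least 10 counts. The 10 IDs before OSH15 had at most 10 reads each and a median of 3, and 2 of them were at 0. The limit of detection used here was 3 counts, or 0.418 CPM, so a count of 0 does not show that a transcript is absent. The 10 IDs after it had between 7 and 153 reads with a median of 38.5. The neighbour with most reads was LOC_Os07g03870, 9 places after it, with 153 reads (21.3 CPM).

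**Figure D4:**
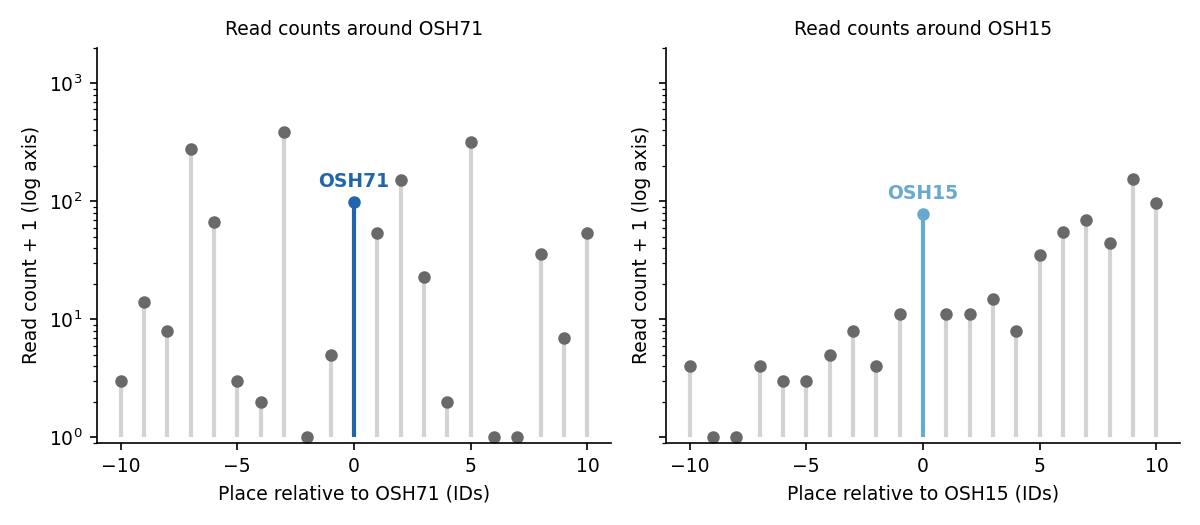
Read counts plus 1 (log axis) of OSH71 (left) and OSH15 (right) with the 10 IDs on each side in the file's order, in the JZ1560 young panicle library. OSH71, with 98 reads, stands among mixed neighbours of 0 to 383 reads, and OSH15, with 77 reads, stands above the 10 nearest IDs.

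The count table holds IDs without names, so panicle markers other than these 4 genes were not analysed here. Further class I KNOX genes could not be added to these values. RefSeq lists OSH6, OSH10 and OSH43 by name, but it pairs 0 of its entries with an ID of the count table, so no reads are given for them. The names of the 4 genes come with the choice of their IDs, and RefSeq holds an entry for each of the 4 names. The entries OSH1 and OSH3 lie on chromosome 3, OSH71 on chromosome 5 and OSH15 on chromosome 7, the same chromosomes as in their IDs.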

How the data were processed

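RNA of JZ1560 young panicles was sequenced as 101 bp paired reads, per the labels' protocols. The authors deposited 1 table of whole-number read counts per gene ID, laid out as HTSeq writes it. TopHat2, HTSeq, BWA and FastQC appear in the submitters' processing notes, with no version or role. The genome build, the gene annotation and the strand setting are not given in those notes, the labels or the file. Counts summed to 7169403 over 55986 IDs. Reads without a feature (26.1%) and ambiguous reads (2.97%) were left out. CPM, ranks by count, exact 95% intervals and the 10 neighbours on each side in the file's order were computed with Python 3.11.15, numpy 2.4.6, pandas 2.3.3 and scipy 1.17.1, after a check of the functions on simulated data. The pseudocount was 1 CPM and the limit of detection 3 counts.

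The members and their neighbourhoods were chosen with earlier results of these data known. Named genes were the members, the ID between OSH1 and OSH3, the neighbour with most reads and, by symbol, further class I KNOX genes. Where sets of neighbours end, the end IDs are named as well. The labels do not say that the sample came from several plants. The 23 peak lists were not used, because no annotation on their coordinates was used here. No sequence is shown.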

Additional observations from a re-analysis of the deposited data

How the results depend on the processing

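With reads of no feature and ambiguous reads in the total, OSH1 moved to 22.5, OSH71 to 9.70 and OSH15 to 7.62 CPM, so that 1 of the 4 genes passed 10 CPM, against 22.2% of all IDs, while OSH3, at 2.38 CPM, stayed within its interval. Leaving out the 10 IDs of highest count moved no CPM beyond its interval. Among IDs with at least 1 count, the share above was 15.5% for OSH1, 25.4% for OSH71 and 28.1% for OSH15. Among IDs with at least 10 counts it was 28.0% for OSH1, 45.8% for OSH71, 50.6% for OSH15 and 72.8% for OSH3. Against neighbours with at least 10 counts, the log2(CPM + 1) differences were 0.78 for OSH1, 0.66 for OSH71, 0.88 for OSH15 and -2.26 for OSH3, since this leaves out the low neighbours. With a pseudocount of 0.1 they were 3.42 for OSH1, 3.20 for OSH71 and 3.08 for OSH15. With 20 IDs on each side they were 3.00 for OSH71 and 3.05 for OSH15. The OSH3 difference was 0.59 with 5 IDs on each side, against -0.91 with 10. With 5 IDs on each side and at least 10 counts, a pair of choices added after the values were seen, they were 1.78 for OSH1, -0.58 for OSH71, 2.29 for OSH15 and -1.63 for OSH3. The other alternatives moved values by less than the Poisson interval. The alternatives per kb of coding length were not run, because no coding lengths were used here. No paired analysis was possible because the RNA values come from 1 library. Depth limits OSH3 most, whose interval spans 15.4 to 35.7 reads.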

Other observations

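The drop in reads across the OSH1 and OSH3 pair can be set beside the rest of the table. The medians of the 10 IDs before and after differed 45.1-fold around OSH1, 43.0-fold around OSH3, 12.8-fold around OSH15 and 5.18-fold around OSH71. The higher median was before OSH1 and OSH3 but after OSH15 and OSH71, and the folds do not carry this direction. Of 27363 IDs with at least 10 counts and 10 IDs on each side, 16.8% had side medians at least 10-fold apart, in either direction. A median below 1 was counted as 1. The share with folds as large as those around OSH1 and OSH3 was not computed. The windows of OSH1 and OSH3 are largely the same IDs, and the measure and its limit were chosen after the values were seen. With 20 IDs on each side the folds were 2.94 for OSH1, 4.61 for OSH3, 5.00 for OSH15 and 1.08 for OSH71.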
